A study of Homo sapiens with 6 samples.

Results

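The transforming growth factor beta (TGF-beta) and activin pathway was followed through 10 genes chosen by symbol, 9 of which had a row among the 16536 genes of the deposited table. These 9 were the ligand genes TGFB1, TGFB2 and INHBA, the latency gene LTBP1, the antagonist gene FST, the receptor genes TGFBR1 and TGFBR2, the mediator gene SMAD3 and the target gene TGFBI. TGFBR3 was not analysed here. RNA came from SCC4, an established human cell line from a squamous carcinoma of the tongue, with 3 libraries of sphere cells, obtained by growth in suspension and regarded by the submitters as cancer stem cells, and 3 libraries of the adherent parental cells they came from. No genotype change or drug is named for either group, and both groups are the same line. The comparison asks how the transcriptome of sphere cells differs from that of parental cells. Nothing in the labels says that replicates came from separate cultures. If they did not, p-values reflect technical spread among libraries alone. Errors after ± are SDs over 3 libraries unless marked SE.

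TGF-beta ligands are secreted in a latent form, bound to their own propeptide and often to a latent TGF-beta binding protein in the matrix, and must be released before they reach a receptor. Activins are released as active dimers and are neutralised by follistatin. Both ligand types assemble type I and type II receptor kinases, which phosphorylate SMAD2 and SMAD3, and these enter the nucleus with SMAD4. In normal squamous epithelium the pathway restrains proliferation, and in carcinomas it is also known for matrix and motility programmes.

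Values are normalised expression in units on a scale that the submitters name TPM, that is, per transcript length, so that levels of different genes can be set side by side on that scale. Column totals were 1007357 to 1134102 units in sphere libraries and 885258 to 1007523 units in parental libraries, so they are not plain TPM, and the read depth behind a value is unknown. Of the values between 0.5 and 100 units, at least 91.6% in each library lay within 0.1 step of a whole multiple of a constant, here called a step, that was fitted to that library and was between 0.8864 and 1.136 units. Dividing by it is called undoing the authors' scaling. Column totals then came to between 998329 and 999264, near the fixed total of TPM. A step is therefore read here as about 1 TPM and not as a read count. Genes at 0 numbered 434 in every sphere library, against 1504, 644 and 1449 in parental replicates 1 to 3. Whether values were adjusted together within a group, which would make the spread and the p-values too small, was not tested. Globin and other erythroid transcripts summed to 1218.9 units in sphere replicate 2 and to 1909.5 and 1297.1 units in parental replicates 2 and 3, against at most 1.2 units in the other 3 libraries, so results are also given without those 3 globin-bearing libraries. The 8 squamous markers summed to 24864.6 to 26299.6 units in sphere libraries and 5917.5 to 6588.8 units in parental libraries, sums made up largely of KRT5 and KRT14. Not every marker was higher, as ITGB4 had 119 to 133 units in sphere libraries and 144 to 152 units in parental libraries, and DSG3 72.4 to 86.7 and 71.8 to 83.7 units. Of 7 fibroblast markers 3 had a row, and these summed to 25.2 to 30.2 units in sphere libraries and 7.5 to 9.8 units in parental libraries, the sphere sum being mostly LUM. Their part in the results below was not tested. In bulk RNA, a change in the share of cells that express a gene and a change in RNA per cell cannot be told apart.

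In the values as deposited, sphere cells had more FST, TGFB2, INHBA, SMAD3 and TGFBI RNA and less TGFB1, LTBP1, TGFBR1 and TGFBR2 RNA than parental cells. All 9 genes were at 1 unit or more in all 6 libraries, and all 9 passed the test (limma on log2(value + 1) over 15034 genes, two-sided, Benjamini-Hochberg adjusted p below 0.05), with 5 higher and 4 lower. Calls were common across the transcriptome, at 48.7% of tested genes (25.8% higher and 22.9% lower), and at 59.0% of genes with at least 5 units in 3 or more libraries. Higher genes made up 53.0% of all calls as deposited and 37.7% with the scaling undone. The sphere and parental values did not overlap for any of the 9 genes, which was also so for 65.0% of tested genes. Only FST changed by at least 2-fold in either direction on the log2(value + 1) scale. Of all tested genes, 8.09% were called higher with a rise of at least 2-fold on that scale, as FST was. Without the 3 globin-bearing libraries 3 of the 9 were called, FST, TGFB2 and LTBP1, against 40.3% of all genes in a fit with 1 parental and 2 sphere libraries, where the lone parental library is assumed to vary like the sphere pair. The same 3 genes were called under every alternative in which they were tested. None of the alternatives changed the rounding to steps, and TGFB2 and LTBP1 hold few steps.

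**Figure D1:**
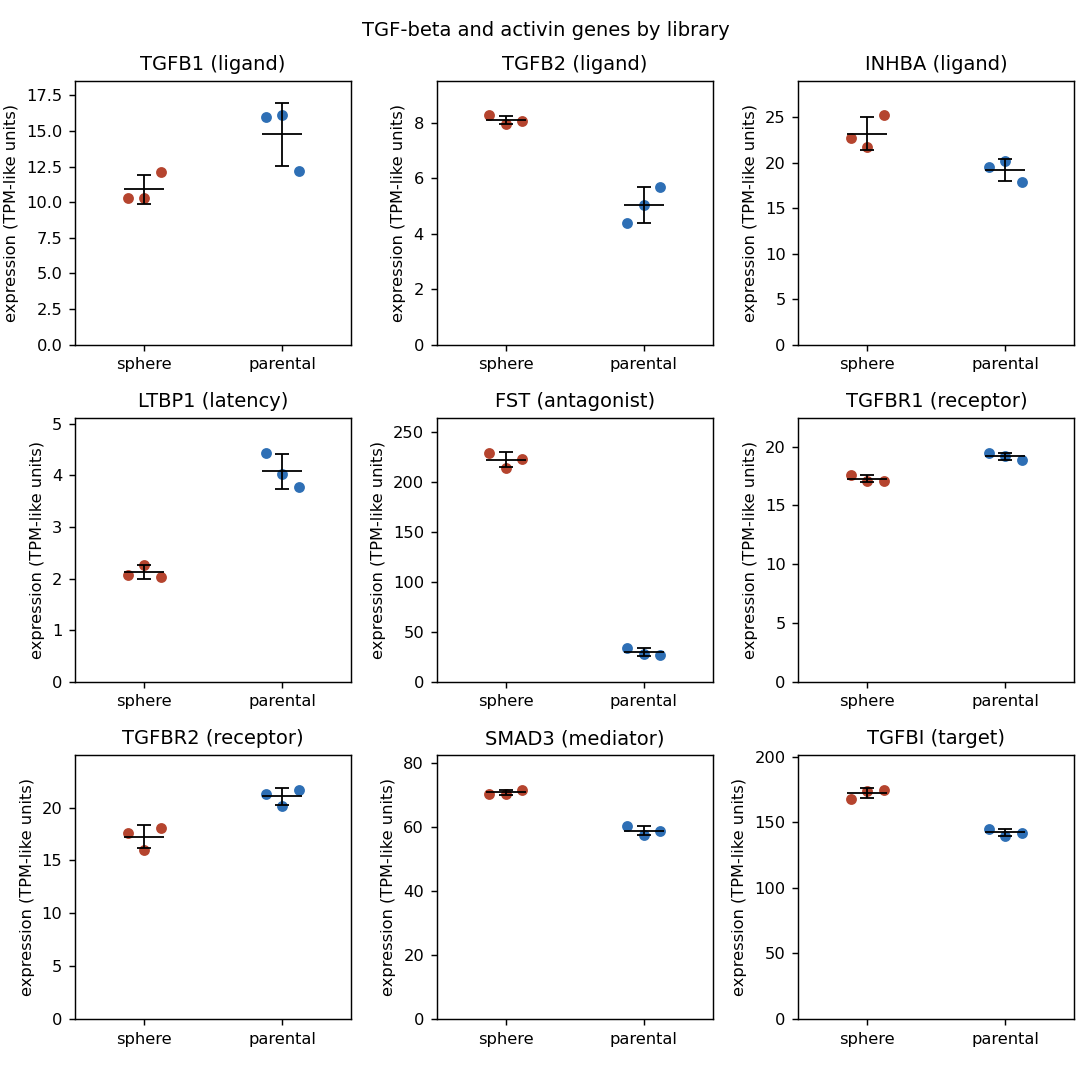
Expression of the 9 genes in TPM-like units (vertical axes, starting at 0) in the sphere and parental libraries, with each point a library and black marks the mean and SD of 3 libraries. FST separates most, at 222 and 29.5 units on average, while TGFBR1 differs by about 2 units, with means of 17.3 and 19.2.

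The RefSeq promoters of these 3 genes, the ones called under every alternative, are shown from 250 bases before to 50 bases after the annotated start, on the plus strand of GRCh38.p14. All 9 genes matched a promoter by gene identifier. Capitals mark the 5-letter SMAD element CAGAC, or its reverse complement GTCTG, and the AP-1 element TGANTCA, which reads the same on both strands. No 2 of these matches overlap.
FST, chr5:53480379-53480678: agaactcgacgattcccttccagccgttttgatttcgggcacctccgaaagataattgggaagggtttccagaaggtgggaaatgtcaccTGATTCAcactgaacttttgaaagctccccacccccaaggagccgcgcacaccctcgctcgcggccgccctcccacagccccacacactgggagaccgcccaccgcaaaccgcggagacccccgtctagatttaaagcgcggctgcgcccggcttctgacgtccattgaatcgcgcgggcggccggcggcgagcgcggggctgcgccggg
TGFB2, chr1:218345086-218345385: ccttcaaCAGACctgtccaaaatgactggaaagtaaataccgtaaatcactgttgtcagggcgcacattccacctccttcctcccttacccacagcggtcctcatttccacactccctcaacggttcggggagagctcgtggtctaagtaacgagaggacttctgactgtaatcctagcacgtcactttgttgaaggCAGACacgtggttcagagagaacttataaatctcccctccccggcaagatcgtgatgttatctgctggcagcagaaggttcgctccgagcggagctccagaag
LTBP1, chr2:32946703-32947002: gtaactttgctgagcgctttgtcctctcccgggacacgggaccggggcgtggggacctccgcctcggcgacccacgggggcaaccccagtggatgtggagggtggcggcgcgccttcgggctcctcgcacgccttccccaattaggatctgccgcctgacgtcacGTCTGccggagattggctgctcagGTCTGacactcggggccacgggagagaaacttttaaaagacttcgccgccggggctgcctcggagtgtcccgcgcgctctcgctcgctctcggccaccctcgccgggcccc
The FST window held 1 AP-1 element, TGATTCA, 160 bases before the start, and no CAGAC on either strand. The TGFB2 window held CAGAC 243 and 53 bases before the start, and the LTBP1 window held GTCTG 85 and 61 bases before it. Of 35116 RefSeq promoters of the same length, 45.3% held CAGAC on either strand, 13.1% held it at 2 or more places and 7.71% held TGANTCA. Of the 9 genes, 5 had CAGAC on either strand and 1 had TGANTCA. These are letter matches in a window and not evidence of binding.

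FST encodes follistatin, a secreted protein that binds activin and blocks its access to receptors. FST (ENSG00000134363) stood at 229, 214 and 223 units in sphere replicates 1 to 3, against 33.8, 28.2 and 26.4 units in parental replicates 1 to 3. Every sphere library was far above every parental library, and the lowest sphere value was in the globin-bearing library. The means were 222 ± 7.95 units in sphere cells and 29.5 ± 3.86 units in parental cells (SD, n = 3 each), a ratio of 7.53. The log2 fold change was 2.88 ± 0.094 (SE), with a limma adjusted p of 1.2e-05, and FST ranked 73 of 15034 genes by rise. Over all alternatives its log2 fold change stayed between 2.71 and 2.98. Isoforms of FST that differ in tissue retention cannot be separated in gene-level values.

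Among the ligands, the activin A subunit gene and the second TGF-beta gene were higher as deposited and TGFB1 was lower. Of these calls, only that of TGFB2 held under every alternative. TGFB2 (ENSG00000092969), whose product needs the co-receptor betaglycan for efficient receptor binding, stood at 8.27, 7.97 and 8.07 units in sphere libraries, against 4.39, 5.04 and 5.68 units in parental libraries. The sphere values lay close together and above all parental values. Its log2 fold change was 0.60 ± 0.092 (SE; limma adjusted p = 0.00286), and it ranged between 0.39 and 0.77 over the alternatives. These are low values, of 7 to 8 steps in sphere libraries and 5 to 6 steps in parental libraries. In GENCODE v29, 1371 of the 5151 exonic bases of TGFB2 are shared with TGFB2-OT1 on the same strand, so reads there could be assigned to either gene.

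TGFB1 (ENSG00000105329), the ligand found in most tissues, stood at 10.3, 10.3 and 12.1 units in sphere libraries, against 16.0, 16.1 and 12.2 units in parental libraries. Sphere replicate 3 and parental replicate 3 nearly met, at 12.1 and 12.2 units, while the other libraries were well apart. This gave a log2 fold change of -0.40 ± 0.125 (SE; limma adjusted p = 0.0403). That call ended without sphere replicate 1 (log2 fold change -0.37, limma adjusted p = 0.118), sphere replicate 2 (-0.36, 0.127), parental replicate 1 (-0.34, 0.118) or parental replicate 2 (-0.34, 0.106), and without the 3 globin-bearing libraries (-0.48, 0.0632). HNRNPUL1 lies on the opposite strand and shares 215 of the 3238 exonic bases of TGFB1 in GENCODE v29. Whether reads were counted by strand is not given in the sources used here.

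INHBA (ENSG00000122641), the subunit that pairs to form activin A, stood at 22.7, 21.7 and 25.2 units in sphere libraries, against 19.5, 20.2 and 17.9 units in parental libraries. The groups were separate but close, with 21.7 and 20.2 units as the nearest values. The log2 fold change was 0.26 ± 0.075 (SE; limma adjusted p = 0.031). Before the authors' scaling the same libraries held 22, 19 and 25 steps in sphere cells and 22, 20 and 19 steps in parental cells, which overlap, and the call ended (log2 fold change 0.10, limma adjusted p = 0.504). It also ended without sphere replicate 1 (0.27, adjusted p = 0.0736), sphere replicate 3 (0.20, 0.0808), parental replicate 1 (0.27, 0.0704) or parental replicate 3 (0.21, 0.0686), with quantile normalization (0.25, 0.0501) and without the 3 globin-bearing libraries (0.28, 0.109).

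Ratios within a library do not depend on the scaling between libraries. The FST to INHBA ratio was 10.1, 9.86 and 8.84 in sphere libraries, against 1.73, 1.40 and 1.47 in parental libraries. The antagonist was therefore above the activin subunit on this scale in all 6 libraries, and by a far wider margin in each sphere library. The log2 ratio differed by 2.65, with a two-sided exact permutation p of 0.1, the smallest that 3 against 3 libraries allow. The TGFB2 to TGFB1 ratio was 0.799, 0.776 and 0.667 in sphere libraries, against 0.274, 0.313 and 0.465 in parental libraries. TGFB1 was the more abundant of the pair in every library, by less in each sphere library than in any parental one. Here the log2 ratio differed by 1.13, again with an exact permutation p of 0.1. The ratios were chosen after the values were seen.

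**Figure D2:**
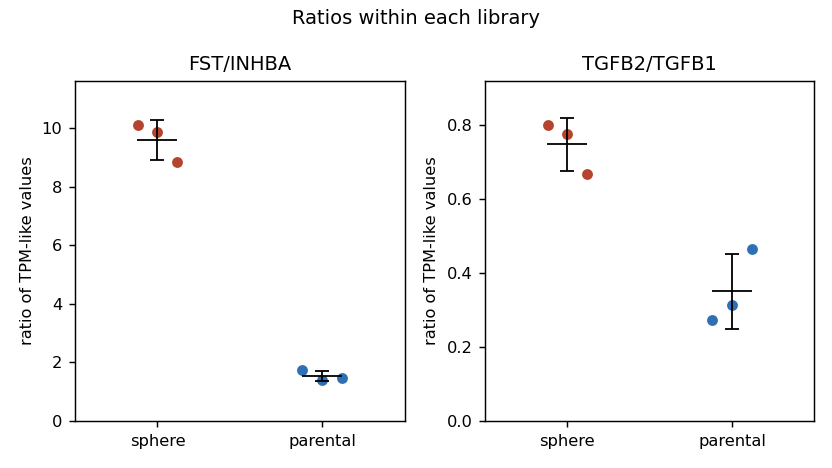
Ratio of FST to INHBA and of TGFB2 to TGFB1 within each library (vertical axes, ratios of TPM-like values, starting at 0), with points for libraries and black marks for mean and SD of 3. Mean ratios are 9.60 in sphere and 1.54 in parental cells for FST to INHBA, and 0.747 and 0.351 for TGFB2 to TGFB1.

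LTBP1 encodes a matrix protein that binds the latent TGF-beta complex and tethers it in the extracellular matrix. LTBP1 (ENSG00000049323) stood at 2.07, 2.27 and 2.02 units in sphere libraries, against 4.44, 4.03 and 3.77 units in parental libraries. All sphere values were below all parental values. Its log2 fold change was -0.70 ± 0.086 (SE; limma adjusted p = 0.00111), and the ratio of means was 0.52. These values are 2, 2 and 2 steps in sphere cells and 5, 4 and 4 steps in parental cells, so rounding sets much of their spread, and 4 other tested genes hold the same 6 whole numbers. Because the fold change depends on the pseudocount at this level, it was -0.91 with a pseudocount of 0.1 and -0.35 with a pseudocount of 5. The opposite-strand gene AC019127.1 shares 249 of its 7329 exonic bases in GENCODE v29.

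Both receptor kinase genes were slightly lower in sphere cells. TGFBR2 (ENSG00000163513), the type II receptor that binds ligand first, stood at 17.6, 16.0 and 18.1 units in sphere libraries, against 21.3, 20.2 and 21.7 units in parental libraries. The groups were about 2 units apart at their nearest values. This gave a log2 fold change of -0.28 ± 0.063 (SE; limma adjusted p = 0.0133), a call that ended without the 3 globin-bearing libraries (log2 fold change -0.24, limma adjusted p = 0.108).

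TGFBR1 (ENSG00000106799), the type I receptor that phosphorylates the SMADs, stood at 17.6, 17.1 and 17.1 units in sphere libraries, against 19.5, 19.2 and 18.9 units in parental libraries. The difference was small beside those of the other genes but larger than the spread of either group. Its log2 fold change was -0.15 ± 0.041 (SE; limma adjusted p = 0.0302), the smallest in size of the 9. That call ended without sphere replicate 1 (log2 fold change -0.16, limma adjusted p = 0.0614), sphere replicate 2 (-0.14, 0.083), sphere replicate 3 (-0.14, 0.0864), parental replicate 1 (-0.13, 0.0948) or parental replicate 2 (-0.15, 0.0724), and without the 3 globin-bearing libraries (-0.16, 0.235). With the scaling undone the log2 fold change was -0.30. The TGFBR2 to TGFBR1 ratio averaged 0.998 ± 0.0612 in sphere cells and 1.10 ± 0.0496 in parental cells (SD, n = 3 each), and the groups overlapped (exact permutation p = 0.2).

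SMAD3, which carries the signal to the nucleus, and TGFBI, a secreted matrix protein named for its induction by TGF-beta, were each higher in sphere cells as deposited, by ratios of means of 1.2 and 1.21. SMAD3 (ENSG00000166949) stood at 70.3, 70.4 and 71.6 units in sphere libraries, against 60.3, 57.5 and 58.6 units in parental libraries. All sphere values lay above all parental values, and the log2 fold change was 0.26 ± 0.035 (SE; limma adjusted p = 0.00159). In GENCODE v29 it shares 182 of 9113 exonic bases with AC087482.1 on the opposite strand. TGFBI (ENSG00000120708) stood at 168, 174 and 175 units in sphere libraries, against 145, 140 and 142 units in parental libraries. Its groups were also apart, with a log2 fold change of 0.27 ± 0.036 (SE; limma adjusted p = 0.00153).

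Both of these calls ended with the scaling undone. Then SMAD3 held 68, 62 and 71 steps in sphere libraries and 68, 57 and 62 in parental libraries, and the log2 fold change was 0.10 (limma adjusted p = 0.407). TGFBI held 163, 153 and 174 steps in sphere libraries and 164, 139 and 150 in parental libraries, and the log2 fold change was 0.11 (adjusted p = 0.339). In both genes the groups then overlapped. Without the 3 globin-bearing libraries SMAD3 had 0.23 (limma adjusted p = 0.0549) and TGFBI 0.24 (0.0521). Undoing the scaling shifted the all-gene median, 0.04 as deposited, by -0.15. Relative to that median, SMAD3 was at 0.22 as deposited and 0.21 with the scaling undone, TGFBI at 0.23 and 0.22, INHBA at 0.21 and 0.21, and TGFBR1 at -0.19 and -0.20.

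**Figure D3:**
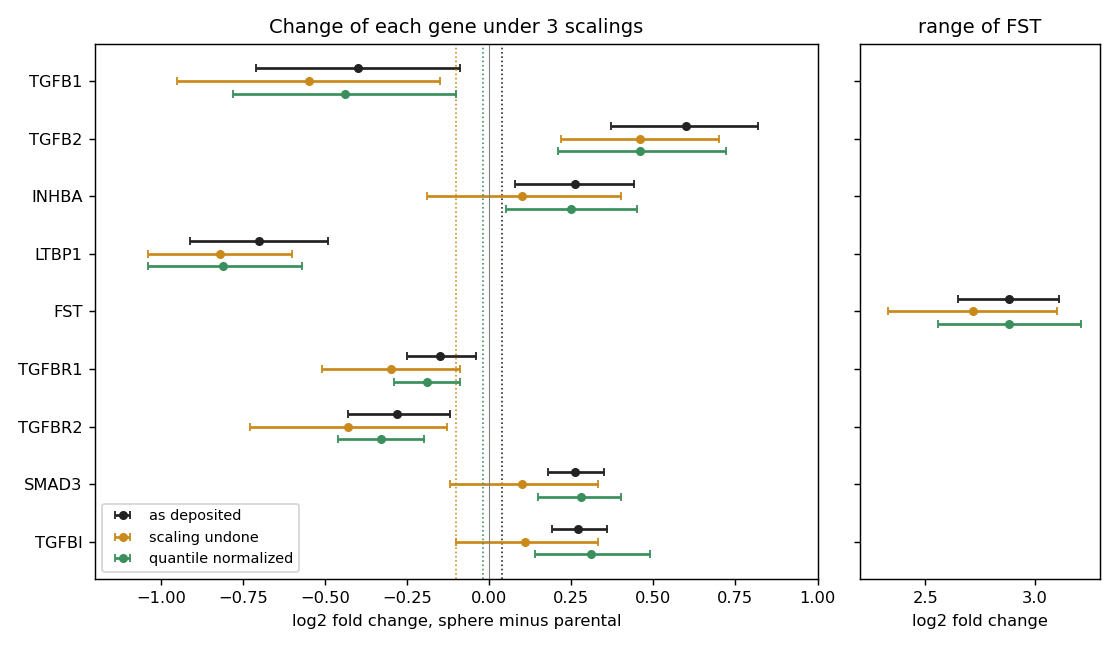
Log2 fold change of each gene, sphere minus parental (horizontal axis, with FST on its own range at the right), with 95% confidence intervals from limma under 3 scalings and dotted lines at the median of all genes under each. The intervals of INHBA, SMAD3 and TGFBI cross 0 only with the authors' scaling undone, where their log2 fold changes are 0.10, 0.10 and 0.11.

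On the per-length scale the order of levels changed mainly through FST. In sphere cells FST led at 222 units on average, followed by TGFBI at 173, SMAD3 at 70.8, INHBA at 23.2, TGFBR1 at 17.3, TGFBR2 at 17.2, TGFB1 at 10.9, TGFB2 at 8.10 and LTBP1 at 2.12 units. The ranges of TGFBR1 and TGFBR2 overlapped there. In parental cells TGFBI led at 142 units, followed by SMAD3 at 58.8, FST at 29.5, TGFBR2 at 21.1, INHBA at 19.2, TGFBR1 at 19.2, TGFB1 at 14.8, TGFB2 at 5.04 and LTBP1 at 4.08 units. The ranges of INHBA and TGFBR1, and of TGFB2 and LTBP1, overlapped there, and TGFBR2 and INHBA both held 20 steps in parental replicate 2. The other receptor-regulated SMAD of the pathway, SMAD2, was at 3.18 ± 0.200 units in sphere cells and 3.45 ± 0.386 units in parental cells (SD, n = 3 each), well below SMAD3 in both. SMAD2 held 3 steps in every sphere library, so its sphere SD is only the spread of the scaling.

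The wider pathway was read from lists of 96 genes by role, of which 82 had a row and 81 were tested. Of the 81, which include the 9 genes above, 32 were higher and 26 lower (71.6% called, against 48.7% of all tested genes and 59.0% of those with at least 5 units in 3 or more libraries), with a median log2 fold change of 0.06 against 0.04 for all tested genes. The list counts that follow stand against 25.8% of all tested genes higher and 22.9% lower. Counts with the scaling undone stand against 40.3% of all tested genes called, with 37.7% of those calls higher. The latency and activation list had 6 of 9 tested genes higher and 2 lower, with a median of 0.52. ITGB6, the integrin subunit that releases TGF-beta from its latent complex in epithelia, stood at 84.7, 76.2 and 79.7 units in sphere libraries, against 21.3, 22.2 and 19.8 units in parental libraries (log2 fold change 1.88 ± 0.061, SE). ITGB8, a subunit with the same activity, was at 36.9 ± 1.54 units in sphere cells and 13.9 ± 1.09 units in parental cells. ITGAV, the alpha chain that pairs with both, did not pass the test (log2 fold change 0.18, limma adjusted p = 0.121). LTBP2 and LTBP4, relatives of LTBP1, rose by log2 values of 1.54 and 0.52 while LTBP1 fell.

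The ligand list had 2 of 8 tested genes higher and 3 lower. INHBE, an activin subunit gene, was listed at 0 in all 3 sphere libraries and stood at 2.64, 3.03 and 2.83 units in parental libraries. These parental values are low, at about 3 steps each. GDF11, a ligand of the same receptors, had 3.18 ± 0.200 units in sphere cells and 4.40 ± 0.348 units in parental cells (log2 fold change -0.37, limma adjusted p = 0.0132). It held 3 steps in every sphere library, so the sphere SD is only the spread of the scaling, and 5, 4 and 5 steps in parental libraries. The GDF11 call ended without the 3 globin-bearing libraries (log2 fold change -0.42). Without them 1 ligand gene was called higher and 1 lower. The antagonist list had 3 tested genes, with FST and BGN higher and FSTL3 lower. BGN, a small matrix proteoglycan that can bind TGF-beta, was at 5.66 ± 0.954 units in sphere cells and 0.941 ± 0.0678 units in parental cells. Every parental library held about 1 step of BGN, so the parental SD is again the spread of the scaling. FSTL3, a relative of follistatin that also neutralises activin, was at 11.4, 11.3 and 10.1 units in sphere libraries, against 15.9, 16.1 and 17.0 units in parental libraries (log2 fold change -0.54 ± 0.065, SE), opposite to FST.

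Of 8 tested receptor genes, 2 were higher and 3 lower, and 1 higher and 0 lower without the 3 globin-bearing libraries. ACVR1C, an activin-type receptor, was at 4.58 ± 0.449 units in sphere cells and 2.83 ± 0.193 units in parental cells (log2 fold change 0.54). It held 4, 4 and 5 steps in sphere libraries and 3 steps in every parental library. The parental SD is thus only the spread of the scaling, and the groups differ by few rounded steps. ACVR2A, a type II activin receptor, was at 3.87 ± 0.373 units in sphere cells and 5.67 ± 0.380 units in parental cells (log2 fold change -0.45). It held 4, 3 and 4 steps in sphere libraries and 6 steps in every parental library. The ACVR2A call ended without the 3 globin-bearing libraries (log2 fold change -0.31). ACVR1B, the main type I activin receptor, was at 23.3 ± 1.34 and 19.8 ± 0.345 units in sphere and parental cells (log2 fold change 0.22, limma adjusted p = 0.0191). The ACVR1B call ended with the scaling undone (log2 fold change 0.06, adjusted p = 0.527), without sphere replicate 2 (0.20, 0.0665), sphere replicate 3 (0.19, 0.0654) or parental replicate 1 (0.21, 0.063), and without the 3 globin-bearing libraries (0.22, 0.183). ACVR1 did not pass the test, at 33.4 ± 0.588 units in sphere cells and 32.4 ± 1.46 units in parental cells.

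Of 9 tested SMAD mediators and cofactors, 2 were higher and 4 lower, 0 and 4 with the scaling undone, and 1 and 1 without the 3 globin-bearing libraries. CREBBP and EP300, histone acetyltransferases that serve as SMAD coactivators, fell by 0.85 and 0.43 on the log2 scale, and the EP300 call ended without those 3 libraries (limma adjusted p = 0.142). SP1, a transcription factor that cooperates with SMADs, was at 48.6 ± 1.60 units in sphere cells and 38.1 ± 0.260 units in parental cells, and its call ended with the scaling undone (limma adjusted p = 0.144). SMAD4, the common partner, held few steps, at 4, 3 and 4 in sphere libraries and 6, 5 and 5 in parental libraries. It was at 3.87 ± 0.373 units in sphere cells and 5.03 ± 0.305 units in parental cells (log2 fold change -0.31, limma adjusted p = 0.03). That call ended without sphere replicate 2 (-0.24, 0.0719), sphere replicate 3 (-0.33, 0.0602), parental replicate 1 (-0.27, 0.0888) or parental replicate 2 (-0.31, 0.0759), and without the 3 globin-bearing libraries (-0.32, 0.103).

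The genes that damp the signal inside the cell were mostly lower in sphere cells. Of 12 tested, 8 were lower and 2 higher, with a median log2 fold change of -0.43, against 22.9% lower, 25.8% higher and a median of 0.04 over all tested genes. With the scaling undone 8 were lower and 1 higher, and without the 3 globin-bearing libraries 6 were lower and 2 higher. PMEPA1, a membrane protein that sequesters SMAD2 and SMAD3, stood at 12.4, 12.5 and 13.1 units in sphere libraries, against 33.6, 35.3 and 36.9 units in parental libraries (log2 fold change -1.41 ± 0.052, SE; limma adjusted p = 1.66e-05). SMURF2, a ubiquitin ligase that removes receptors and SMADs, was at 15.5 ± 0.663 units in sphere cells and 23.6 ± 0.862 units in parental cells. SMAD7, an inhibitory SMAD, stood at 2.07, 2.27 and 2.02 units in sphere libraries, against 4.44, 4.03 and 3.77 units in parental libraries. These are the same whole numbers of steps as those of LTBP1. SMAD6, the other inhibitory SMAD, named after its values were seen, was higher, at 2.07, 2.27 and 2.02 units in sphere libraries. Its parental values were 0.891, 0.0013 and 0.949 units (log2 fold change 1.01, limma adjusted p = 0.0247). That SMAD6 call ended with the scaling undone (0.92, limma adjusted p = 0.0636), a pseudocount of 0.1 (2.23, 0.104) or quantile normalization (0.61, 0.0691). It also ended with replicate number as a block (1.01, 0.0551) and without sphere replicate 1, 2 or 3 (1.02, 0.98 and 1.04). SMAD6 lay near the floor, at 2 steps in every sphere library and 1, 0 and 1 in parental libraries. The corepressor genes SKI and SKIL, named after their values were seen, fell by 0.47 and 0.58 on the log2 scale. The corepressor gene TGIF2 went the other way, at 20.1 ± 0.810 units in sphere cells and 7.85 ± 1.18 units in parental cells (log2 fold change 1.26 ± 0.107, SE).

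**Figure D4:**
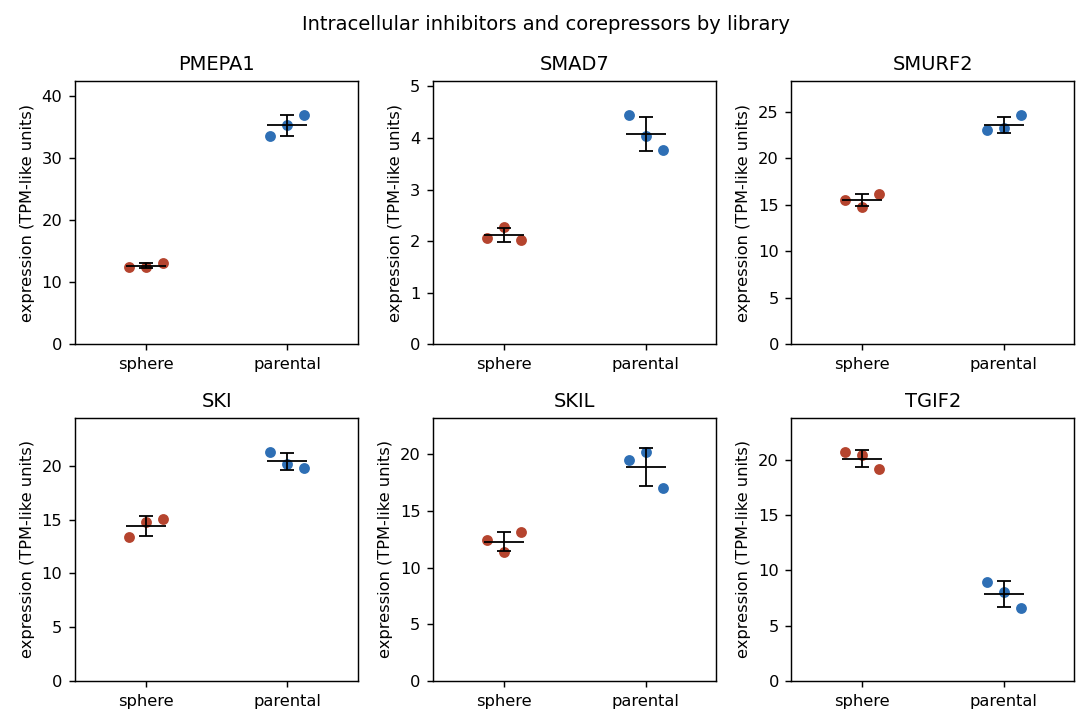
Expression of 6 intracellular inhibitors and corepressors in TPM-like units (vertical axes, starting at 0), with points for libraries and black marks for mean and SD of 3 libraries in sphere and parental cells. In each of PMEPA1, SMAD7, SMURF2, SKI and SKIL every sphere library lies below every parental library, and TGIF2 shows the reverse, with means of 20.1 and 7.85 units.

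Genes known to be induced by TGF-beta in various cells went both ways. Of 33 tested, 17 were higher and 8 lower, with a median of 0.39, and the list shares PMEPA1, SMAD7, SKIL, ITGB6, LTBP2 and THBS1 with the lists above. CCN2, a matricellular protein, stood at 100, 95.4 and 94.8 units in sphere libraries, against 7.97, 7.06 and 8.52 units in parental libraries (log2 fold change 3.47 ± 0.071, SE). JUNB, an AP-1 subunit, was at 542 ± 13.0 units in sphere cells and 104 ± 1.75 units in parental cells. SNAI2, a transcription factor of epithelial plasticity, rose by 1.38 on the log2 scale.

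Of 5 genes known to be repressed by TGF-beta in epithelial cells, 2 were higher and 0 lower. ID1 and ID3, inhibitors of basic helix-loop-helix factors that BMP signals induce, rose by 1.99 and 1.12 on the log2 scale. CDC25A, a cell cycle phosphatase, was at 7.06 ± 0.848 units in sphere cells and 9.43 ± 3.40 units in parental cells and did not pass the test. MYC and ID2 did not pass it either, at log2 fold changes of 0.75 and 0.90. ID2 stood at 3.14, 11.0 and 3.03 units in sphere libraries, against 0.78, 1.02 and 7.69 units in parental libraries. Its highest value in each group was in a globin-bearing library, although parental replicate 2, also globin-bearing, had 1.02 units. MYC, a growth-promoting transcription factor, stood at 165, 167 and 168 units in sphere libraries, against 46.9, 261 and 79.1 units in parental libraries, so the parental values lay on both sides of the sphere values. Both genes passed without the 3 globin-bearing libraries (1.81, limma adjusted p = 0.00183, and 1.20, 0.00429), a fit whose only parental library, replicate 1, has the lowest parental value of each gene. Dropping parental replicate 2 alone, the highest for MYC, also brought MYC past the test (1.44, 0.00501).

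**Figure D5:**
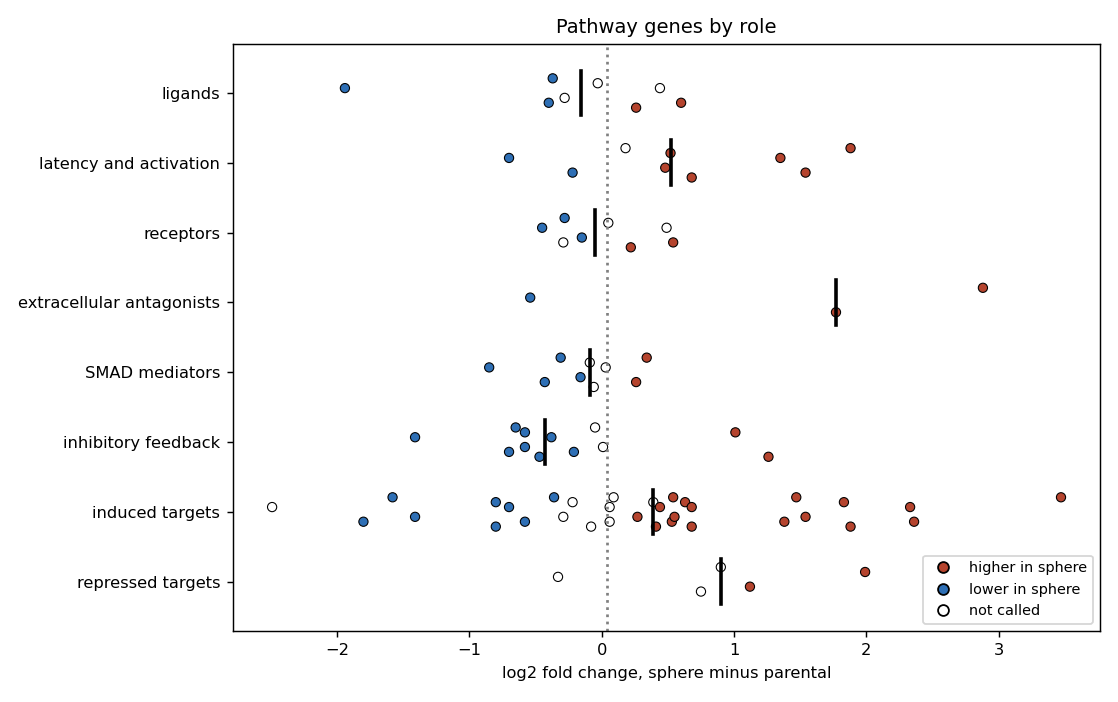
Log2 fold change, sphere minus parental (horizontal axis), of each tested gene of the role lists, 1 point a gene, filled red if called higher, blue if called lower and white if not called, with a black bar at each list's median and a dotted line at the median of all tested genes. The inhibitory feedback list lies mostly left of the dotted line, with a median of -0.43, and the latency and activation list mostly right of it, with a median of 0.52. A gene in 2 lists appears in both, and the white point farthest left is VIM.

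Over the 6 libraries, the genes whose profile of log2(value + 1), centred on its mean, lay closest to that of FST among 10287 genes averaging 5 units or more were RAB26, LRG1 and INSIG1, at root mean square differences of 0.056, 0.094 and 0.106. For LTBP1, second to FST in size of change with a pseudocount of 1 but behind TGFB2 with a pseudocount of 5 (log2 fold changes of -0.35 and 0.39), they were CCNJ, DMPK and CEP120, at 0.013, 0.027 and 0.031. With 2 groups of 3 libraries these distances mostly reflect the size of the group difference.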

How the data were processed

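The 6 libraries, of total RNA, were read on a BGISEQ500 instrument, per the labels' protocols. HISAT, Bowtie2 and a mouse build (GRCm38.p6) appear in the submitters' processing notes, yet all identifiers are human. For the quantifier and annotation the sources used here give no name. The authors' deposited values are a TPM-like signal, rescaled between libraries, and no counts were recovered from them. Values under 1e-06 were set to 0.

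Genes of at least 1 unit in 3 or more of 6 libraries were fitted as log2(value + 1) with limma 3.58.1 in R 4.3.3 (2 groups, mean trend, two-sided, Benjamini-Hochberg) and called at an adjusted p of 0.05. The procedure was tested on simulated data. Besides the 9 genes, the text names up to 4 called genes of smallest p per role list, and in lists with fewer, any with a mean of at least 5 units. Some results that this rule names are withheld and not reported here. The genes and lists were chosen with earlier results of these data known. Alternatives were pseudocounts, filters, scalings, variance models, a replicate block and libraries left out. Promoter sequences are RefSeq's (GRCh38.p14).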

Additional observations from a re-analysis of the deposited data

How the results depend on the processing

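FST, TGFB2 and LTBP1 kept direction and call under each alternative that could be run (LTBP1 had too low a level for a filter of 5 units). No gene of the 9 changed sign under any of them. With the authors' scaling undone 3 calls ended, INHBA (log2 fold change 0.10), SMAD3 (0.10) and TGFBI (0.11), and with quantile normalization 1 ended, INHBA (0.25). Without the 3 globin-bearing libraries, a fit of 3 libraries, 3 of the 9 genes were called, and calls ended for INHBA (0.28), SMAD3 (0.23), TGFB1 (-0.48), TGFBI (0.24), TGFBR1 (-0.16) and TGFBR2 (-0.24). The labels pair replicates by number only. Deviations of same-numbered libraries correlated at 0.329, 0.121 and -0.273 for replicates 1, 2 and 3, so the numbers were not taken as a pairing. With the replicate block 6176 genes were called against 7315, and calls ended for INHBA (0.26), TGFB1 (-0.40) and TGFBR1 (-0.15).

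Leaving out 1 library at a time called 6149 to 7310 genes, 6 to 8 of the 9 genes and 48 to 58 of the listed pathway genes. The log2 fold change then ran from 0.20 to 0.31 for INHBA, -0.52 to -0.34 for TGFB1, -0.16 to -0.13 for TGFBR1, -0.31 to -0.23 for TGFBR2, 0.25 to 0.28 for SMAD3, 0.26 to 0.29 for TGFBI, 2.80 to 2.98 for FST, 0.52 to 0.67 for TGFB2 and -0.75 to -0.65 for LTBP1. Read depth is unknown, and a value of a few steps carries a rounding error that no interval here covers. Where all libraries of a group hold the same number of steps, the SD of that group holds no spread beyond the scaling.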

Other observations

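Other genes known to respond to TGF-beta, named after their values were seen, also went both ways. TGM2, a transglutaminase, was at 24.0 ± 2.16 units in sphere cells and 4.08 ± 1.43 units in parental cells, and BHLHE40, a transcriptional repressor, at 135 ± 3.28 and 37.4 ± 2.79 units (SD, n = 3 each). Of the cyclin-dependent kinase inhibitor genes through which TGF-beta is known to slow epithelial cells, CDKN2B was higher, at 57.4 ± 1.40 units in sphere cells and 36.8 ± 3.51 units in parental cells, and CDKN1A was lower, at 69.3 ± 2.26 and 122 ± 9.01 units. The calls of these 4 genes held with the scaling undone and without the 3 globin-bearing libraries. IL11, a cytokine, was listed at 0 in all 3 sphere libraries and stood at 2.66, 2.02 and 2.84 units in parental libraries, low values of 3, 2 and 3 steps. VIM, a mesenchymal filament gene, followed the globin-bearing libraries and not the groups, at 18.5 units in sphere replicate 2 and 19.2 and 165 units in parental replicates 2 and 3, against at most 0.0964 units in the other libraries.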
